A study of Mus musculus with 4 samples.

Results

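The small leucine-rich proteoglycans are secreted proteins built on a horseshoe of leucine-rich repeats, most of which carry glycosaminoglycan chains. Here 10 genes of the family were followed by name: Dcn, Bgn, Aspn, Fmod, Lum, Prelp, Omd, Ogn, Chad and Podn, out of 39179 genes in the deposited table. All 10 were found in it and all 10 passed the filter on low values. The libraries are labelled as primary smooth muscle cells of the mouse aorta. The knockout mice, labelled Sm-Yap/Taz-KO, carried a smooth muscle deletion of the genes for YAP (Yap1) and TAZ (Wwtr1), the transcriptional co-activators at the end of the Hippo pathway, and the controls were wild-type mice. RNA of both groups was taken 18 days after tamoxifen, with 2 libraries per group. The promoter that drives the deletion, the animals' age and whether cells of several animals were pooled are not stated in the sources used. Nothing in the labels says that the libraries of a group are from separate animals, so the p-values measure the spread between these libraries, which may be technical.

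These proteins sit on the surface of collagen fibrils in the adventitia and between the muscle layers of arteries, set how thick the fibrils grow, and bind growth factors such as TGF-β. Decorin, biglycan and asporin form class I of the family. Fibromodulin, lumican, prolargin and osteomodulin form class II, osteoglycin belongs to class III, and chondroadherin and podocan to the non-canonical classes. Several of the genes lie side by side in clusters on chromosomes 1, 10 and 13. In vessels, fibroblasts and smooth muscle cells are the known sources.

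All values are normalized read counts per gene, rounded to whole numbers by the authors. They summed to between 13279332 and 14519178 per library, and the reads on genes behind them were estimated at 12300000 and 11800000 for the knockout and 15600000 and 16800000 for the controls. A gene was called higher or lower at a limma adjusted p under 0.05 over 15058 tested genes. That rule called 9.58% of all tested genes as higher with the deletion and 6.7% as lower. Yap1 had 947 and 962 normalized counts in knockout libraries, versus 1966 and 1877 in wild-type ones (log2 fold change -1.01, limma adjusted p = 0.0080). Wwtr1 had 2848 and 2466 against 3423 and 4016 (log2 fold change -0.48, limma adjusted p = 0.055). The smooth muscle label was checked against defining markers. Acta2 and Myh11 were at 33544 or more normalized counts in every library, so smooth muscle RNA was present in all 4. Markers of other cells were present as well. The summed counts of 12 macrophage markers were 14274 and 18372 in knockout libraries, versus 1354 and 3871 in wild-type ones, and those of 14 adventitial fibroblast markers were 34606 and 30118 in knockout libraries, versus 10591 and 23078 in wild-type ones. Wild-type replicate 1 held the fewest reads of fibroblast, macrophage, endothelial and adipocyte markers.

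The family split. Lum and Podn were higher in the knockout and Ogn and Prelp lower, while Dcn, Bgn, Aspn, Fmod, Omd and Chad were not called. Of 7 further family genes, Ecm2 and Optc were also lower. The sequences before the start sites of the 4 genes that fell, and of Podn, which rose, are shown so that their make-up can be set beside these directions. They are the 250 bases before the RefSeq start site on GRCm38.p6, written 5′ to 3′, and capitals mark the letters of any motif searched.
Ogn (chr13:49607765-49608014, plus strand): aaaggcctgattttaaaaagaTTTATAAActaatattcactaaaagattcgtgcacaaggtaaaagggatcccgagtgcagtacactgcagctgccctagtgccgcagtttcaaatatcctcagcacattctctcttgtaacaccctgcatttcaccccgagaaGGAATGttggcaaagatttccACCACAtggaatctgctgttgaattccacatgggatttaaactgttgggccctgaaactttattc
Prelp (chr1:133921402-133921651, minus strand): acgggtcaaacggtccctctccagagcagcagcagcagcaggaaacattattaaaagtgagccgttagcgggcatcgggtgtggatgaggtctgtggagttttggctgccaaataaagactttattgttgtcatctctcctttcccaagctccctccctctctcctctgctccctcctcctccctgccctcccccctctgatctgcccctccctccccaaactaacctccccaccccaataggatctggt
Ecm2 (chr13:49504560-49504809, plus strand): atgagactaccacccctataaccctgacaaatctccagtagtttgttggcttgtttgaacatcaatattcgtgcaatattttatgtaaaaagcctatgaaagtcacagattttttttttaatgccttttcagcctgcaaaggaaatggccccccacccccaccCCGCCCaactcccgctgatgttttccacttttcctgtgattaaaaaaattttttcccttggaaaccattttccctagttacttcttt
Optc (chr1:133908000-133908249, minus strand): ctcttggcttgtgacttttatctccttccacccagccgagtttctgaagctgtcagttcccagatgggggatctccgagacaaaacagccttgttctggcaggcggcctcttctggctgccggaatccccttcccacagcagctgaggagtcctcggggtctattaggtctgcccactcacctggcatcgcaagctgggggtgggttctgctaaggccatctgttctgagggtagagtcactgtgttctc
Podn (chr4:108031955-108032204, minus strand): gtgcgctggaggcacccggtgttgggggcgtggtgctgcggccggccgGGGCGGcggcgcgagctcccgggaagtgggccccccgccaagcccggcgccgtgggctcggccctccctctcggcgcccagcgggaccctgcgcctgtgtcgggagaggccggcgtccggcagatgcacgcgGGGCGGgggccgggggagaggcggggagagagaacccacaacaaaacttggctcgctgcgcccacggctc

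No RefSeq window was available for Dcn or for Lum, which was also called higher. The other 8 of the 10 genes had 9 windows, since Podn has 2, and 6 of the 7 further family genes had windows too. All windows ran from 250 bases before to 50 after the start. They were searched on both strands for 6 motifs: the TEAD motif CATTCC, to which YAP and TAZ are brought by their DNA-binding partners, the AP-1 motif TGANTCA, the RUNX motif ACCACA, the GC box GGGCGG, the TATA box TATAAA and the CArG box of smooth muscle genes. The Ogn window held the TEAD letters on the opposite strand (GGAATG), starting 86 bases before the start site, and the RUNX letters starting 65 bases before it. Its capitals at the far end are TATA letters on both strands that overlap each other. None of the other 8 windows of the 10 genes held the TEAD letters, and none of the 9 held the AP-1 motif or the CArG box. Of the further family genes, Epyc, which was not called, held the TEAD letters in 1 window, starting 188 bases before that start, and the RUNX letters in another, starting 37 bases after its start. In 32851 windows of all genes, 14.7% held the TEAD letters, 16.8% the RUNX letters, 7.81% the AP-1 motif and 1.63% the CArG box. The Prelp and Optc windows held none of the 6, the Ecm2 window a GC box starting 87 bases before the start, and the Podn window shown, the first of its 2, 2 GC boxes (35.7% of all windows hold this one). Bgn had 3 GC boxes on the opposite strand, starting 34, 10 and 6 bases before its start, the last of which overlaps the one before it. Chad had a TATA box 28 bases before its start, and Aspn had TATA letters 207 and 178 bases before its own (13.6% of all windows hold them). These matches describe letters only.

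Per kilobase of exon, Bgn, which encodes biglycan, had the highest level of the family in every library. Its level was 10970 and 13760 normalized counts per kb in the wild type and 14340 and 16080 in the knockout. Ogn, which encodes osteoglycin or mimecan, stood next in the wild type at 10590 and 8812 counts per kb. Below these, the wild-type means were 1786 counts per kb for Prelp, 1322 for Dcn, 622.1 for Lum, 542.5 for Aspn, 519.4 for Fmod, 290.2 for Podn, 228.8 for Omd and 9.82 for Chad. In that order the wild-type ranges of Prelp and Dcn overlapped, as did those of Lum, Aspn and Fmod, those of Fmod and Podn, and those of Podn and Omd. In the knockout the order after Bgn was Ogn (3384 counts per kb), Dcn (3109), Lum (2606), Fmod (1418), Prelp (1167), Aspn (931.8), Podn (618.7), Omd (197.4) and Chad (14.3). The knockout ranges of Ogn, Dcn and Lum overlapped, and so did those of Prelp and Aspn. These orders depend on the exon lengths used, such as 5838 bases for Dcn and 2566 for Ogn. Unscaled, the knockout mean was 18147.5 counts for Dcn and 8684.5 for Ogn. The unscaled wild-type mean was 7718.5 for Dcn and 6457.5 for Prelp.

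**Figure D1:**
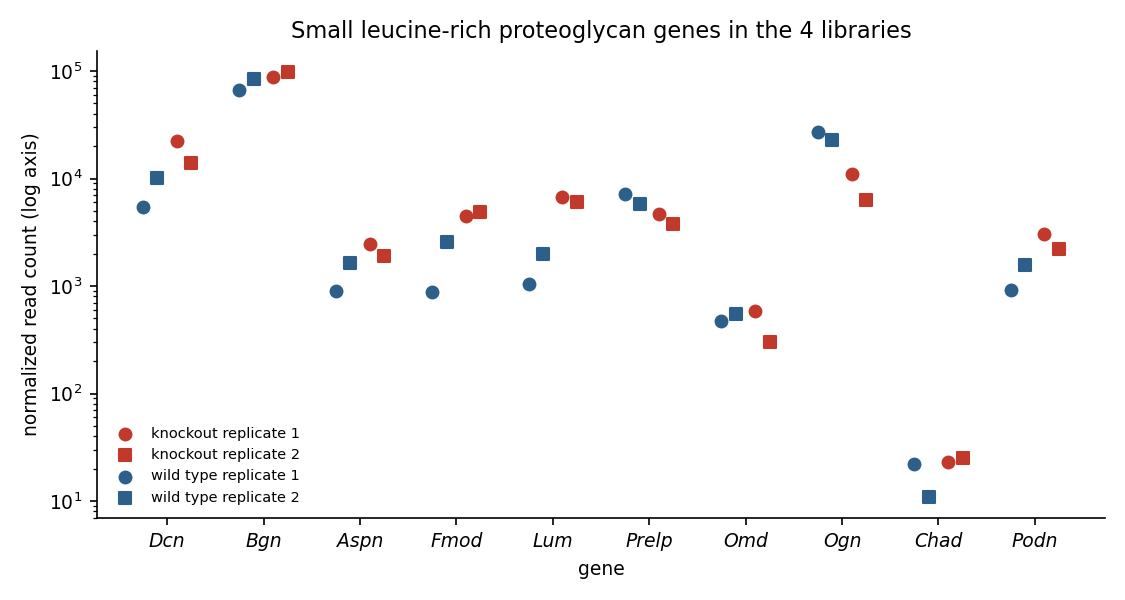
Normalized read count (log axis) of the 10 genes in each library, wild type in blue and knockout in red, circles for replicate 1 and squares for replicate 2. Bgn lies above all others, Chad lies at 11 to 25 counts, and Ogn and Prelp have both knockout points below both wild-type points.

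Summed over the 10 genes, the family had 29880 and 27440 counts per kb in knockout libraries, versus 25970 and 28800 in wild-type ones, so the groups overlapped on this scale. Without scaling by length, the summed normalized counts were 142770 and 137640 in knockout libraries, versus 110826 and 130674 in wild-type ones. As a share of all normalized counts these sums were 1.03% and 1.04% against 0.779% and 0.90%, so on both of these scales the knockout lay above the wild type. The shares of single genes within the family are per kb and depend on the same exon lengths. Ogn made up 40.8% and 30.6% of the family per kb in the wild type and 14.4% and 9.0% in the knockout. Lum went the other way, with 1.65% and 2.83% in the wild type and 9.18% and 9.0% in the knockout. Dcn made up 3.56% and 5.98% in the wild type and 12.8% and 8.76% in the knockout. The share of Bgn was 42.2% and 47.8% in the wild type and 48.0% and 58.6% in the knockout.

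**Figure D2:**
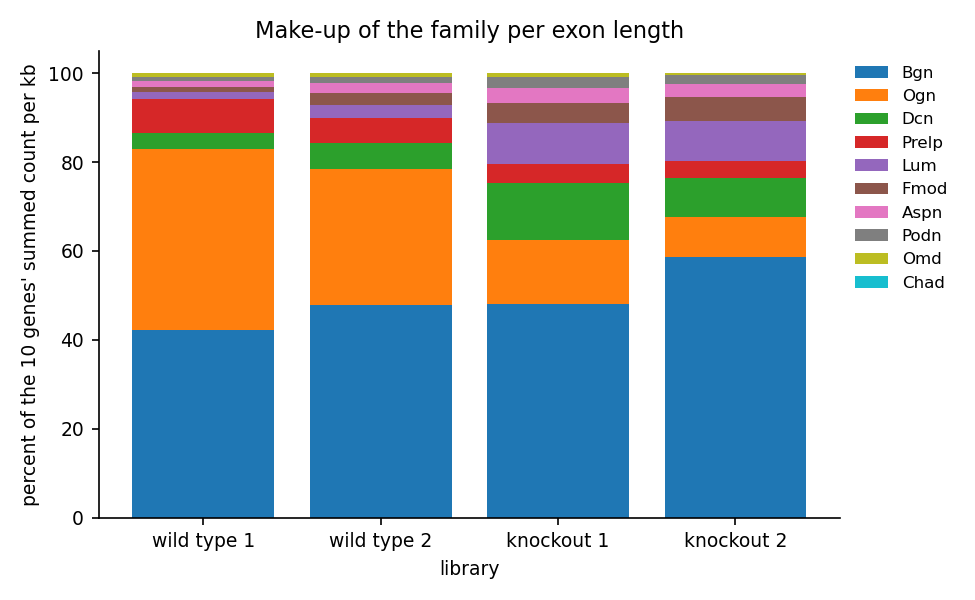
Share of each gene in the summed normalized count per kb of the 10 genes (percent, stacked to 100), with 1 bar per library. The Ogn band shrinks from 40.8% and 30.6% in the wild type to 14.4% and 9.0% in the knockout, while the bands of Dcn, Lum and Fmod are wider there.

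In the test over all genes 2 of the 10 were higher and 2 lower in the knockout, beside the background shares of 9.58% and 6.7%. Their median log2 fold change was 0.71, against -0.02 over all tested genes. For 7 of the 10 both knockout values lay above both wild-type values, and for 2 both lay below. Over all tested genes these arrangements held for 30.7% and 32.1%. The calls were sensitive to the test: with no intensity trend or with no filter on low values, limma called no gene at all and hence no member. At an unadjusted p under 0.05, 5 of the 10 members passed limma with no trend, beside 4274 of 15058 tested genes. With no filter 6 of the 10 passed, beside 5472 of 23812 genes. The calls also changed when single libraries were left out. After quantile normalization, and after scaling to the same total, 4 were higher (Dcn, Fmod, Lum and Podn) and 1 lower (Ogn). These fits called 1516 and 1831 of all 15058 tested genes as higher and 1257 and 854 as lower. The main fit called 1443 and 1009.

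**Figure D3:**
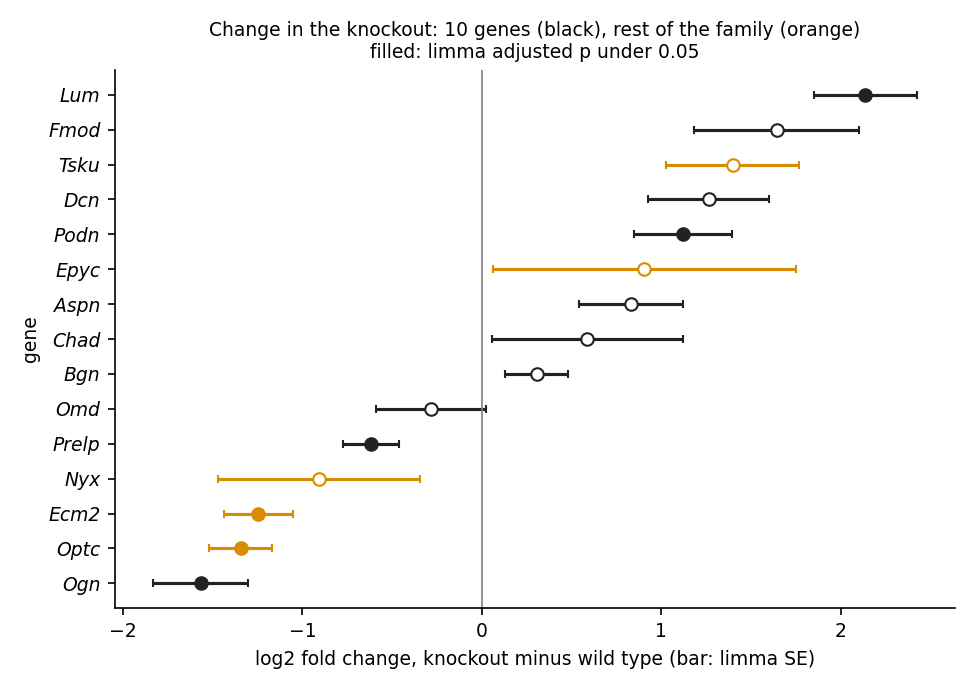
Log2 fold change (knockout minus wild type) with limma's SE for the 10 genes in black and the 5 tested genes of the rest of the family in orange. Filled points passed a limma adjusted p of 0.05: Lum and Podn on the right, Prelp, Ecm2, Optc and Ogn on the left.

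Among the class I genes, Dcn encodes decorin, which carries a single chondroitin or dermatan sulfate chain, coats collagen fibrils and binds TGF-β. It had 22269 and 14026 normalized counts in knockout libraries, versus 5392 and 10045 in wild-type ones. Both knockout values were above both wild-type values, but the libraries of each group also stood well apart. The ratio of means was 2.35, the log2 fold change 1.26 (SE 0.34), and the limma adjusted p of 0.056 missed the threshold. That p was 0.0496 after TMM rescaling, 0.0338 at the same total and 0.0211 after quantile normalization, but 0.169 with no intensity trend and 0.20 with no filter on low values. With 1 library left out it ran from 0.0733 to 0.332, and the log2 fold change of Dcn was 0.81 without wild-type replicate 1.

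Bgn, the most abundant member, encodes biglycan, which resembles decorin but can also signal through Toll-like receptors when released. It had 87490 and 98076 counts in the knockout against 66877 and 83906 in the wild type. The knockout values lay higher by a narrow margin, with the lower of them 1.04 times the higher wild-type value (log2 fold change 0.31 with an SE of 0.18, limma adjusted p = 0.29). With 1 library left out, the log2 fold change of Bgn ran from 0.14 to 0.47. Aspn, which encodes asporin, a decorin relative that binds TGF-β and collagen, had 2473 and 1914 counts in knockout libraries, versus 906 and 1648 in wild-type ones. Its groups did not overlap, yet wild-type replicate 2 was closer to the knockout than to its own replicate (log2 fold change 0.83 with an SE of 0.29, limma adjusted p = 0.11). The log2 fold change of Aspn was 0.40 when wild-type replicate 1 was left out and 1.26 when the other wild-type library was. The ratio of Dcn to Bgn within a library, on the log2 scale, was -1.97 and -2.81 in knockout libraries, versus -3.63 and -3.06 in wild-type ones.

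Of the class II genes, Lum showed the largest log2 fold change of the 10. It encodes lumican, a keratan sulfate proteoglycan best known for fibril spacing in the cornea. Lum had 6716 and 6043 normalized counts in knockout libraries, versus 1051 and 1995 in wild-type ones. The lower knockout value was 3.03 times the higher wild-type value. Its ratio of means was 4.19 and its log2 fold change 2.14 (SE 0.29, limma adjusted p = 0.011). Leaving out single libraries gave log2 fold changes from 1.68 to 2.60. The call of Lum was lost with no intensity trend (limma adjusted p = 0.081) and with no filter on low values (0.101).

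Fmod encodes fibromodulin, which binds collagen near the lumican site and is cut during tissue breakdown. Its counts were 4450 and 4926 in knockout libraries, versus 876 and 2558 in wild-type ones. The knockout libraries were close to each other, whereas the wild-type libraries differed 2.92-fold. The log2 fold change was 1.64 (SE 0.46, limma adjusted p = 0.062). It was 0.87 when wild-type replicate 1 was left out and 2.42 when the other wild-type library was, where the limma adjusted p was 0.0376.

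Prelp encodes prolargin, a member without glycosaminoglycan chains whose basic start binds heparan sulfate and which links basement membranes to collagen. It had 4671 and 3767 counts in knockout libraries, versus 7124 and 5791 in wild-type ones. The groups did not overlap and the difference was modest, with a wild-type mean 1.53 times the knockout mean (log2 fold change -0.62 with an SE of 0.16, limma adjusted p = 0.048). The call was lost in 8 of 11 alternatives, among them quantile normalization (limma adjusted p = 0.0593) and the same total (0.0557), while the direction held in all 11. Omd, which encodes osteomodulin or osteoadherin, an acidic protein of mineralizing matrix, had 585 and 303 counts in knockout libraries, versus 474 and 555 in wild-type ones. The knockout libraries enclosed the wild-type ones (log2 fold change -0.28 with an SE of 0.31, limma adjusted p = 0.58).

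Ogn, the class III gene, encodes osteoglycin, a small member abundant in arterial smooth muscle. It had 11032 and 6337 normalized counts in knockout libraries, versus 27180 and 22611 in wild-type ones. Both knockout libraries lay far below both wild-type libraries, and the wild-type mean was 2.87 times the knockout mean. The log2 fold change was -1.57 (SE 0.26, limma adjusted p = 0.018), and 1.94% of tested genes had a lower one. Leaving out 1 knockout library at a time gave -1.17 and -1.97. The call of Ogn was lost with no intensity trend (limma adjusted p = 0.096) and with no filter on low values (0.114).

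Podn encodes podocan, a larger member of class V that is expressed in vascular smooth muscle. Its counts were 3061 and 2223 in knockout libraries, versus 924 and 1554 in wild-type ones, with no overlap of the groups (ratio of means 2.13, log2 fold change 1.12 with an SE of 0.27, limma adjusted p = 0.043). Leaving out wild-type replicate 1 gave a log2 fold change of 0.75. The call of Podn was lost with no intensity trend (limma adjusted p = 0.148) and with no filter on low values (0.17). Chad encodes chondroadherin, a cartilage protein that binds integrins and carries no glycosaminoglycan chain. It was near the detection limit at 23 and 25 counts in knockout libraries, versus 22 and 11 in wild-type ones, too few for a difference of this size to be detected (log2 fold change 0.59 with an SE of 0.53, limma adjusted p = 0.50). Chad lies within the span of Acsf2 on the opposite strand, with no shared exon bases, and Acsf2 had 236 and 239 against 193 and 223 counts. The sources used here do not give the strand setting of the counting, so intronic reads of Acsf2 cannot be told apart from those of Chad.

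Of the 7 further family genes, 5 were tested, and 2 were lower and 0 higher by limma's adjusted p. Over all tested genes 6.7% were called lower and 9.58% higher. The median log2 fold change of the 5 was that of Nyx (-0.91), a gene of few counts, and Epyc (0.91) and Tsku had positive ones. Ecm2, which encodes an extracellular matrix protein with the same repeats, had 3306 and 2198 counts in knockout libraries, versus 6427 and 6353 in wild-type ones. The wild-type libraries were nearly equal and the knockout lay below them (log2 fold change -1.25 with an SE of 0.19, limma adjusted p = 0.015). Optc, which encodes opticin, a protein known from the vitreous of the eye, had 488 and 360 counts in knockout libraries, versus 1012 and 1123 in wild-type ones (log2 fold change -1.34 with an SE of 0.17, limma adjusted p = 0.011). Tsku, which encodes tsukushi, a BMP and Wnt regulator, had 152 and 262 counts with the deletion and 58 and 97 without (log2 fold change 1.40, limma adjusted p = 0.054). After quantile normalization and at the same total, 1 of the further genes was higher. Epyc had 7 and 28 against 5 and 10, and Nyx 9 and 9 against 15 and 21. The cornea gene Kera did not exceed 1 count in any library and Podnl1 did not exceed 10, so they were not tested.

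Several of the genes are neighbours (positions from GENCODE M21 on GRCm38). On chromosome 13, Ecm2 (49504810 to 49532789), Aspn (49544443 to 49567565), Omd (49582462 to 49592822) and Ogn (49608046 to 49624501) follow each other on the plus strand. The outer genes Ecm2 and Ogn were called lower, whereas Aspn between them had higher counts in the knockout and Omd overlapping ones. Within each library the log2 ratio of Ogn to Aspn was 2.16 and 1.73 in knockout libraries, versus 4.91 and 3.78 in wild-type ones. That of Ecm2 to Ogn varied less, at -1.74 and -1.53 in knockout libraries, versus -2.08 and -1.83 in wild-type ones. All 4 genes lie within the span of Cenpp on the opposite strand, which shares 7 exon bases with Aspn and none with the others, and Cenpp had 54 to 89 counts.

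On chromosome 1, Optc (133897199 to 133907999) and Prelp (133910304 to 133921414) lie 2304 bases apart on the minus strand, and both were lower. Fmod (134037254 to 134048277) lies 115839 bases beyond Prelp on the plus strand and had higher counts in the knockout. The log2 ratio of Fmod to Prelp was -0.07 and 0.39 in knockout libraries, versus -3.02 and -1.18 in wild-type ones. An antisense gene, Gm15851, covers 9.68% of the exon length of Prelp and was at 0 or 1 count in every library. On chromosome 10, Dcn (97479609 to 97518143) and Lum (97565128 to 97572703) lie 46984 bases apart on the plus strand. Their log2 ratio, Lum to Dcn, was -1.73 and -1.22 in knockout libraries, versus -2.36 and -2.33 in wild-type ones, so Lum differed more than its neighbour.

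**Figure D4:**
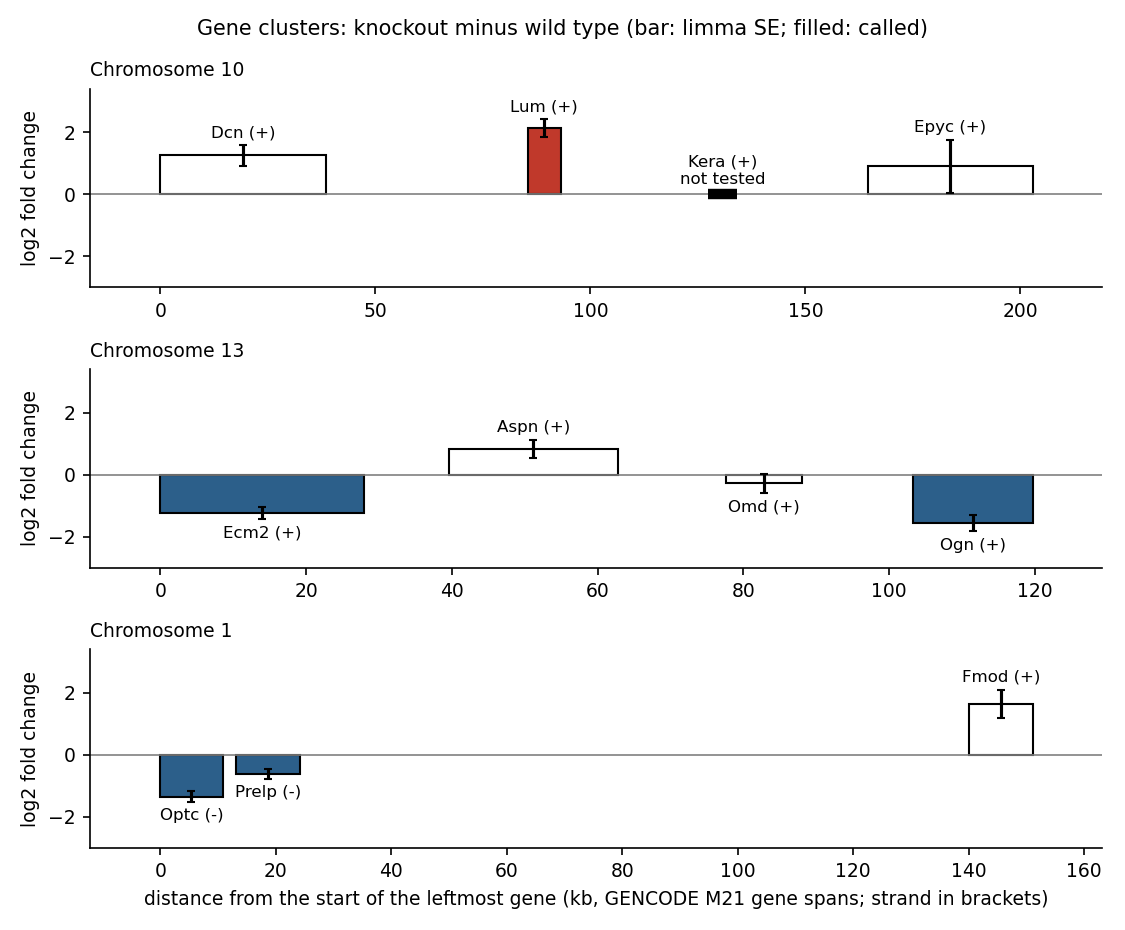
Log2 fold change (knockout minus wild type, bars with limma's SE) of the family genes in the clusters of chromosomes 10, 13 and 1, drawn at their distance in kb from the leftmost gene. Filled bars passed the test: Lum upwards, and Ecm2, Ogn, Optc and Prelp downwards, with the open bars of Aspn and Omd between Ecm2 and Ogn.

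The remaining members stand alone: Bgn on chromosome X (73483602 to 73495933), Podn on chromosome 4 (108014791 to 108096445) and Chad on chromosome 11 (94565047 to 94569127). Of the neighbouring and overlapping genes outside the family, Scp2, whose span overlaps that of Podn on the same strand without sharing exon bases, was higher (963 and 692 against 365 and 514, limma adjusted p = 0.048). Lrrc59, the neighbour of Chad, was also higher, at 2042 and 2204 against 1375 and 1509 (limma adjusted p = 0.025). The others tested, Btg1, Haus7, Btg2, Nol8, Echdc2, Rsad1, Cenpp and Acsf2, were not called.

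Markers of several cell types differed between the groups and between the wild-type libraries. The mean log2 level of the fibroblast markers was 8.87 in wild-type replicate 1 and 10.02 in replicate 2. Replicate 2 was also above replicate 1, on the log2 scale, by 0.90 for Dcn, 0.92 for Lum, 1.54 for Fmod, 0.86 for Aspn and 0.75 for Podn. The same gap was -0.16 for the smooth muscle markers, -0.27 for Ogn, -0.30 for Prelp, -0.02 for Ecm2 and 0.15 for Optc. For the remaining members it was 0.33 for Bgn, 0.23 for Omd and -0.94 for Chad, which had few counts. Among the other markers it was 0.89 for endothelial, 1.29 for adipocyte, 1.45 for macrophage and 0.11 for cartilage and bone ones. In the knockout, replicate 2 minus replicate 1 was -0.30 for the fibroblast and -0.455 for the smooth muscle markers. It was -0.67 for Dcn, -0.15 for Lum, 0.15 for Fmod, -0.37 for Aspn and -0.46 for Podn. For Ogn, Prelp, Ecm2 and Optc it was -0.80, -0.31, -0.59 and -0.44, and for Bgn, Omd and Chad 0.165, -0.947 and 0.115. Of the 14 fibroblast markers, 2 were called higher and none lower (median log2 fold change 1.13), of 10 smooth muscle markers 8 were lower and none higher (median -1.10), and 11 of 12 macrophage markers were higher (median 2.82). Of 10 endothelial markers 5 were higher, of 10 adipocyte markers 8, and of 6 tested cartilage and bone markers 5. The other genes of the 12 listed for cartilage and bone were below the filter on low values, and 2 were at 0 throughout. Among them Sp7 had 6 and 1 counts in knockout libraries, versus 20 and 11 in wild-type ones, and Col2a1 had 7 and 18 against 3 and 2. Over all tested genes 9.58% were called higher and 6.7% lower. None of 6 mesothelial markers exceeded 8 counts, with Upk1b at 0 in all 4 libraries, and none was tested. Fewer cells of a type and less RNA per cell cannot be told apart in these bulk libraries.

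Set against the mean of the fibroblast markers in the same library, a comparison chosen after the values were seen, Dcn lay at 3.65 and 3.28 in knockout libraries, versus 3.52 and 3.27 in wild-type ones on the log2 scale. Podn lay at 0.79 and 0.63 against 0.98 and 0.58, so for these genes the groups overlapped. Lum lay at 1.92 and 2.07 in knockout libraries, versus 1.17 and 0.94 in wild-type ones, with the knockout still above. Fmod lay at 1.33 and 1.77 against 0.90 and 1.30, with the lower knockout value just above the higher wild-type one. For Aspn, Bgn, Omd, Ogn, Prelp, Ecm2 and Optc both knockout values were below both wild-type values on this scale. The fibroblast marker mean itself was 10.79 and 10.49 in knockout libraries, versus 8.87 and 10.02 in wild-type ones. A gene with equal counts in all libraries would thus lie lower in the knockout on this scale. The share of all tested genes so arranged was not computed. The knockout and wild-type means were 2.39 and 5.15 for Ogn and 1.39 and 3.20 for Prelp. They were 0.75 and 3.195 for Ecm2 and -1.93 and 0.61 for Optc.

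Set against the mean of the smooth muscle markers, Ecm2 lay at -1.78 and -1.91 in knockout libraries, versus -1.91 and -1.77 in wild-type ones, and Optc at -4.53 and -4.52 against -4.57 and -4.27. Both overlapped between the groups. Ogn lay at -0.04 and -0.38 in knockout libraries, versus 0.17 and 0.06 in wild-type ones, so the knockout was lower by less than on the count scale. Prelp lay at -1.28 and -1.13 against -1.76 and -1.90, with the knockout now above. Dcn, Lum, Fmod, Podn, Aspn, Bgn, Omd and Chad also had both knockout values above both wild-type values on this scale. The smooth muscle marker mean itself was 13.47 and 13.01 in knockout libraries, versus 14.56 and 14.40 in wild-type ones. A gene with equal counts in all libraries would thus lie higher in the knockout here. The share of all tested genes so arranged was not computed for this scale either. The knockout and wild-type means were 0.87 and -1.63 for Dcn, -0.60 and -3.98 for Lum, and -1.89 and -4.25 for Podn. The part of a changed mix of cells in these differences was not tested.

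**Figure D5:**
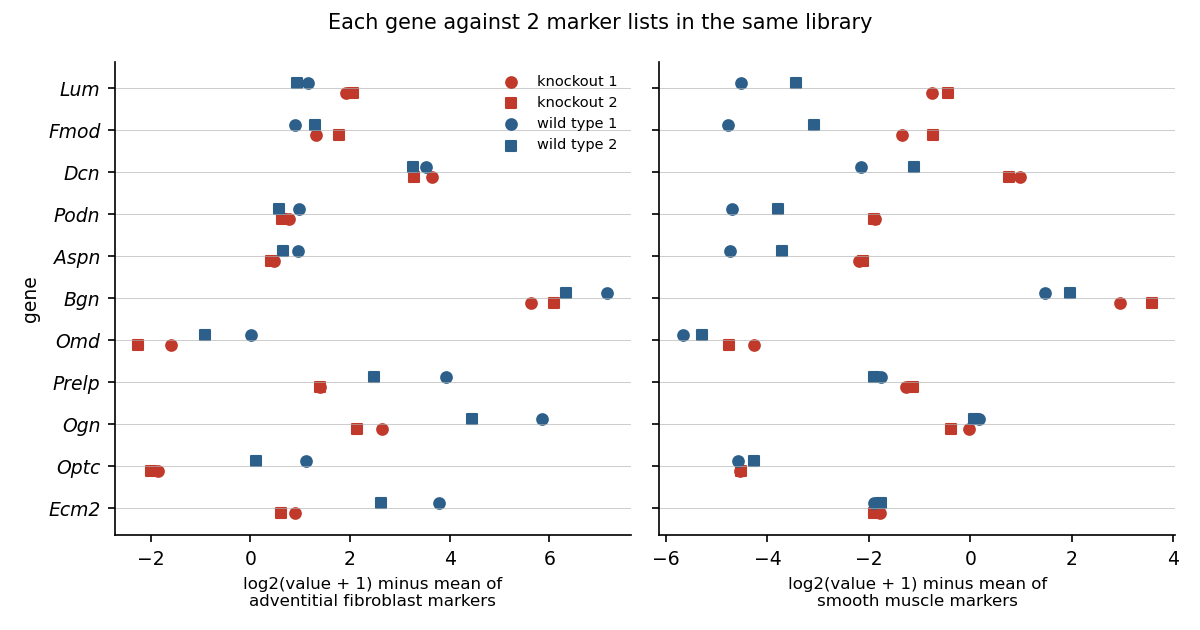
Log2(value + 1) of each gene minus the mean of the adventitial fibroblast markers (left) or smooth muscle markers (right) of the same library, wild type in blue and knockout in red, circles for replicate 1 and squares for replicate 2. Dcn and Podn overlap between the groups on the left, and Optc and Ecm2 on the right.

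Genes that make the sugar chains of these proteins were higher in part. Of 33 tested genes of the glycosaminoglycan linker and chain synthesis, 9 were higher and 1 lower (median log2 fold change 0.25). For this list and those below, the shares over all tested genes were 9.58% higher and 6.7% lower. Dse, the epimerase that turns chondroitin into the dermatan sulfate found on decorin and biglycan, had 1599 and 1652 counts in knockout libraries, versus 790 and 784 in wild-type ones, with very close replicates (log2 fold change 1.04 with an SE of 0.10, limma adjusted p = 0.0079). B4galt1, a galactosyltransferase, had a log2 fold change of 1.02, Ugdh, which makes the glucuronic acid donor, 1.04, and Papss2, which makes the sulfate donor, 1.09. The member that fell, named after its values were seen, was Csgalnact1, which starts chondroitin chains (186 and 264 against 473 and 440, log2 fold change -1.04). With no intensity trend or with no filter on low values, no gene of this list or of those below was called.

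Of the collagens that the family binds, 7 of 12 tested were higher and none lower (median log2 fold change 1.05). For all 12 both knockout values lay above both wild-type values, as for 30.7% of all tested genes. Col1a1, Col1a2 and Col3a1, named after their values were seen, were not called (limma adjusted p = 0.0635, 0.0951 and 0.0753). Col12a1, a collagen of the fibril surface, had 3460 and 6803 counts against 565 and 1223 (log2 fold change 2.54, limma adjusted p = 0.019), and Col11a1, a fibril-initiating chain, had 178 and 741 against 11 and 36. Col6a3 (0.95) and Col5a1 (0.92) rose by less. After quantile normalization 11 of the collagens were higher, but none was with no intensity trend or with no filter on low values.

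Of 14 tested proteases and enhancers known to cut members of the family or to act with those that do, 6 were higher and none lower (median log2 fold change 1.08). Mmp3, a stromelysin, had 4277 and 6068 counts against 283 and 594 (log2 fold change 3.63 with an SE of 0.36, limma adjusted p = 0.0079), and Mmp12, the macrophage elastase, 42 and 45 against 1 and 2. The wild-type mean of Mmp12, 1.5 counts, was near the floor. This gene, counted among the 6, passed the filter on low values only through the knockout libraries. Bmp1, which trims the start of biglycan and osteoglycin, had a log2 fold change of 0.81 and Mmp14, a membrane-bound protease, one of 0.87.

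Among 27 receptors, growth factors and complement proteins that members bind, 13 were higher and 4 lower (median log2 fold change 0.93). Erbb4, a receptor of the EGF receptor family, fell from 1239 and 1024 to 365 and 312 counts (log2 fold change -1.74 with an SE of 0.15, limma adjusted p = 0.0062). The complement gene C4b rose (log2 fold change 2.51), as did Cd44, a hyaluronan receptor (1.48), and Wisp1 (1.87), which encodes a matricellular protein. The list also holds C1qa, C1qb and C1qc, named after their values were seen, which macrophages express and which were all higher. None of the 27 was called with no intensity trend or with no filter on low values.

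Of 20 other proteoglycans and link proteins tested, 6 were higher and 3 lower (median log2 fold change 0.43). Acan, the aggrecan of cartilage, rose from 167 and 199 to 1125 and 2434 counts (log2 fold change 3.17, limma adjusted p = 0.0090) and Vcan, the versican gene, from 4810 and 6261 to 13118 and 14338 (1.32). Sdc3, a cell surface syndecan, rose with a log2 fold change of 2.03 and Prg4, the lubricin gene, with one of 4.42. The 3 that fell, named after their values were seen, were the glypican genes Gpc6 and Gpc4 and the perlecan gene Hspg2.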

How the data were processed

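RNA-seq of 2 knockout and 2 wild-type libraries was analysed. Libraries were stranded and made after ribosomal depletion, per the labels. Tools named in the submitters' processing notes, with no role given, are DESeq2 1.14.1, STAR 2.5.2b, FastQC and featureCounts 1.5.1 of Subread, on mm10 (GRCm38). Annotation, filters and strand setting: not given in the sources used here. The deposited values carry the unit score: normalized read counts that the authors rounded to whole numbers. In the knockout columns 45 and 44 whole numbers up to 400 are skipped, as division by size factors of 0.887 and 0.89 gives (1.1 and 1.16 in the wild type).

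On the log2(value + 1) scale, the 15058 genes whose mean reached 10 were tested in limma 3.58.1 (R 4.3.3) with eBayes and an intensity trend, two-sided, with Benjamini-Hochberg adjustment. Another 15367 of 39179 genes were at 0 throughout. Fold changes on this scale understate those of low genes. TMM factors were computed by the published formula. The test was tried on simulated data. A ratio of means is on the count scale. Levels per kb use union exons of GENCODE M21. The members and lists were chosen with earlier results of these data known, so a list's count is no independent evidence. The named genes are the members, the rest of the family, Yap1 and Wwtr1, neighbouring or overlapping genes and up to 4 genes of each list with the smallest p. Csgalnact1, Gpc4, Gpc6, Hspg2, C1qa, C1qb, C1qc, Col1a1, Col1a2 and Col3a1 fall outside this rule and were named after their values were seen. The same holds for the markers Acta2, Myh11, Upk1b, Sp7, Col2a1 and Kdr. In the lists, 2 genes were found under an older symbol by identifier. Some genes stand in 2 lists, so the counts of these lists are not separate. In the receptor list, C1qa and C1qb are also macrophage markers and Kdr an endothelial one. Acan, a proteoglycan, and Col2a1, a collagen, are also on the cartilage and bone list.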

Additional observations from a re-analysis of the deposited data

How the results depend on the processing

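Lum, Podn, Ogn and Prelp kept their direction in all 11 alternatives, and so did Dcn, Bgn, Fmod, Aspn and Chad. Omd ran from -0.757 to 0.189 with 1 library left out, changing sign without knockout replicate 2. With no filter on low values (genes at 0 throughout left out; 5472 genes at an unadjusted p under 0.05) and with no intensity trend (4274), limma called 0 genes, hence 0 in the family and in every list. With 1 library left out, where the lone library is assumed to vary like the other group, the family counts ran from 0 to 2 higher and were 0 lower. Counts ran from 0 to 2 for chain synthesis higher and from 0 to 1 for receptors lower. They were 0 in all 4 such fits for the rest of the family lower, chain synthesis lower and other proteoglycans lower. For collagens, proteases, receptors and other proteoglycans higher they were 0 to 8, 0 to 5, 0 to 10 and 0 to 5. After quantile normalization and at the same total 4 members were higher and 1 lower, and 1 further family gene was higher. Over all 15058 tested genes these fits called 1516 and 1831 higher and 1257 and 854 lower, against 1443 and 1009 in the main fit. After quantile normalization 11 collagens were higher.

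With the replicate block 4 members (Dcn, Fmod, Lum and Podn) and 1 further family gene were higher, beside 1823 of all 15058 tested genes. The numbers are not known to pair the libraries. The within-group deviations of same-numbered libraries correlated with r = 0.12 across 15058 genes, which are not independent replicates. Among other named genes, leaving out 1 library gave Epyc from -0.022 to 1.836, Btg2 from -0.381 to 0.394 (-0.146 without knockout replicate 2) and Rsad1 from -0.283 to 0.145, and Rsad1 was 0.014 at the same total. Counts of 25 or fewer limit Chad, Kera, Podnl1 and Nyx.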
